A study of Mus musculus with 3 samples.

Results

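The 10 genes described here encode molecules of the tumour necrosis factor (TNF) family and its receptors, together with the costimulatory receptors CD28 and ICOS. They were chosen by symbol (Tnfrsf4, Tnfrsf9, Tnfrsf18, Cd27, Cd40lg, Cd28, Icos, Tnfsf8, Tnfsf11 and Tnf), and 10 of 10 were found among the 17796 genes of the deposited expression table. RNA with poly(A) tails was sequenced from spleen T cells of C57BL/6 mice that had been activated in culture for 3 days. Activation was by antibodies to CD3 (2 ug/ml) and CD28 (5 ug/ml) fixed to the plate, with interleukin 2 at 100 IU/ml. An antibody to the product of Cd28, 1 of the 10 genes, was thus part of the stimulus in all 3 cultures.

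The Old + Fumarate library came from mice stated to be 24 months old that received fumarate at 10 mg/kg, 3 times a week for 2 months. The Old library came from mice of the same stated age given vehicle on that schedule. The Young library came from mice 2 months old, also labelled vehicle, and no course of treatment is stated for them. Whether the 24 months refer to the start or the end of the treatment is not stated. There was 1 library per group, which may hold cells of 1 mouse or a pool, since nothing in the labels tells. No p-value can be given, and the differences below were not seen in replicates. Fumarate is an intermediate of the tricarboxylic acid cycle.

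Members of the TNF family are mostly membrane-bound trimers. Their receptors recruit TRAF adaptor proteins or, for the death receptors, death domain adaptors, and many of them activate NF-kappa B. In T cells CD27 and CD28 are present before activation, while OX40 (Tnfrsf4), CD137 (Tnfrsf9), GITR (Tnfrsf18), ICOS and CD40 ligand (Cd40lg) are induced or increased by it. CD28 and ICOS belong to the immunoglobulin family, bind B7-type ligands on antigen-presenting cells and signal through phosphatidylinositol 3-kinase.

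Values are CPM, the reads of a gene scaled to a total of 1000000 per library. Depth was estimated at 13.9 M reads for Old + Fumarate, 17.3 M for Old and 41 M for Young (M, 1000000). Differences are log2 ratios of CPM + 1, a gene was counted as higher or lower at 2-fold or more on that scale, and the added 1 makes the ratios of low genes smaller. Intervals are exact 95% intervals on estimated reads. They belong to CPM without the added 1 and cover counting error only, since reads are not independent molecules. The 10 genes ranged between 13.4 CPM (Cd40lg) and 1001 CPM (Tnfrsf9) in Old + Fumarate, between 10.7 CPM (Cd40lg) and 680.1 CPM (Tnfrsf9) in Old, and between 29.3 CPM (Tnf) and 716.1 CPM (Tnfrsf9) in Young. Even the lowest, Cd40lg in Old, rested on 184 estimated reads.

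**Figure D1:**
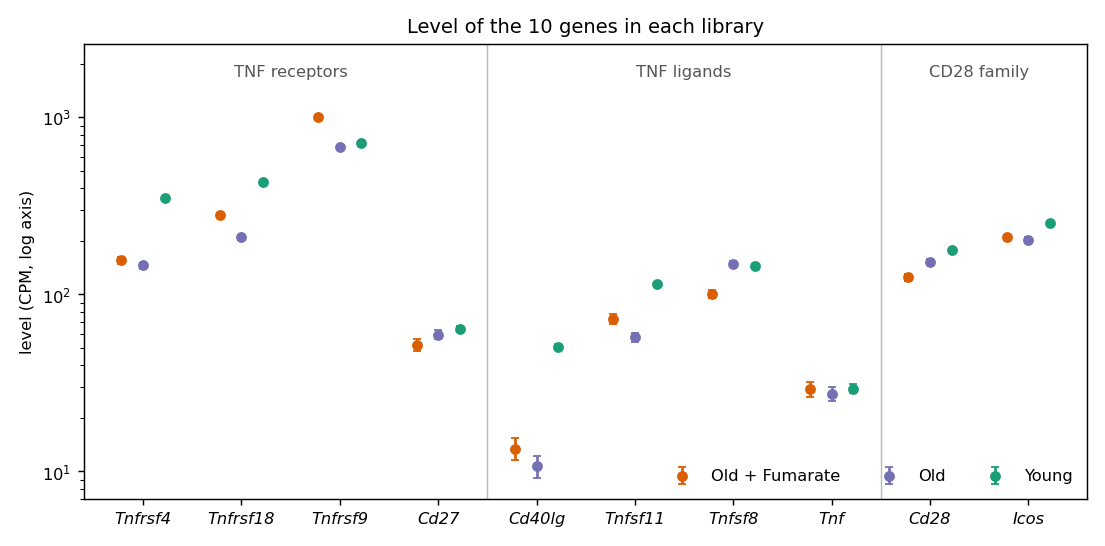
Level of each of the 10 genes in the Old + Fumarate, Old and Young libraries, in CPM on a log axis, with 95% counting intervals and 1 library per group. Cd40lg lies at 13.4 and 10.7 CPM in the 2 libraries of old mice, below its 50.5 CPM in Young, while Tnf lies at 29.1, 27.3 and 29.3 CPM.

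Across the set, Cd40lg, Tnfrsf4 and Tnfrsf18 were at least 2-fold lower in Old than in Young, and 0 of the 10 genes were 2-fold higher. Cd40lg and Tnfrsf4 were also at least 2-fold lower in Old + Fumarate than in Young. Between Old + Fumarate and Old, 0 of the 10 genes differed by 2-fold in either direction, and 10 of 10 lay within 1.5-fold, which depends on the scale for Tnfsf8 and Tnfrsf9, as given below. In RNA from a mixed culture, fewer cells of a type and less RNA per cell cannot be told apart.

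For Old over Young the count of 3 lower genes stands beside a background of 1.71% lower and 8.96% higher among all 17796 genes. Among the 9682 genes with a mean of at least 10 CPM, the background was 1.59% lower and 6.40% higher. The median log2 ratio of the 10 genes was -0.26, against 0.04 for all genes, and 9 of 10 ratios were below 0. That tally of 9 depends on the scale: it was 6 after scaling to a list of T cell identity genes (the identity list), 4 when scaled to Cd4 or to that list without its highest gene, Thy1, and 10 with trimmed-mean (TMM) scaling. Scaling to the identity list moved the median ratio of all genes by 0.15 (0.25 without Thy1), and scaling to Cd4 by 0.32. Just past the 2-fold limit lay Tnfrsf18 at -1.03, and just under it Tnfsf11 at -0.99.

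For Old + Fumarate over Young the count of 2 lower genes stands beside 1.95% lower and 3.99% higher among all genes, and beside 1.65% lower and 2.50% higher among the 9402 genes with a mean of at least 10 CPM. The median of the 10 genes was -0.51 against 0.00 for all genes, with 9 ratios below 0. Scaled to Cd4, that median was -0.11, with 6 ratios below 0. For Old + Fumarate over Old, where the count was 0 in both directions, the background was 0.258% higher and 5.87% lower among all genes, and 0.166% higher and 3.95% lower among the 9659 genes with a mean of at least 10 CPM. The median of the 10 genes was 0.09 against -0.04 for all genes, with 7 ratios above 0, a number that was 4 after scaling to the identity list, which moved the median of all genes by -0.25. The comparisons share libraries, so their ratios are not separate observations.

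**Figure D2:**
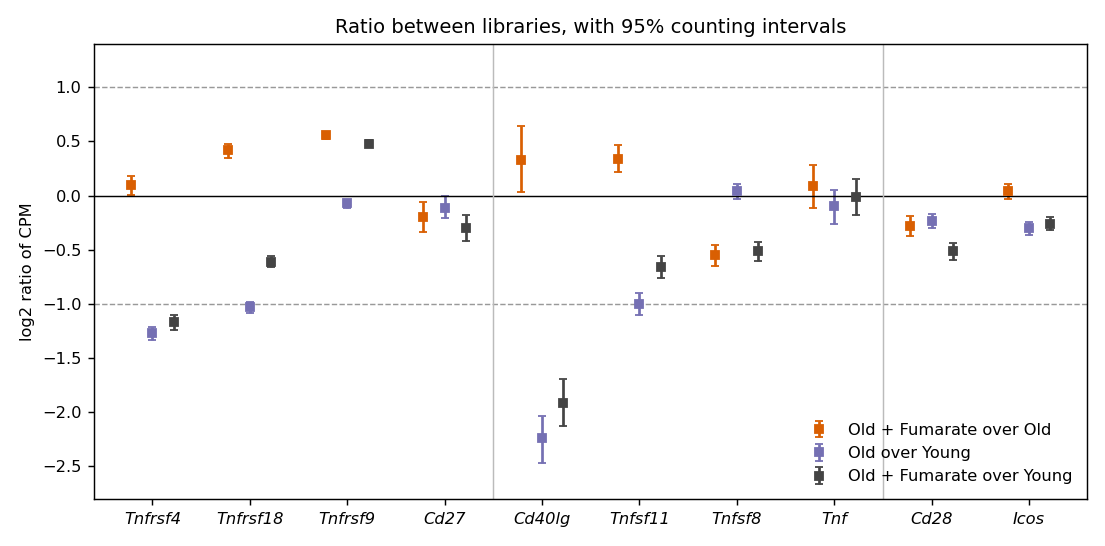
Log2 ratio of CPM, without the added 1, for each of the 10 genes in Old + Fumarate over Old, Old over Young, and Old + Fumarate over Young, with 95% counting intervals and the 2-fold limits marked. On this scale Cd40lg has the lowest ratios over Young, -2.24 for Old and -1.91 for Old + Fumarate, and the 10 ratios of Old + Fumarate over Old stay between -0.55 (Tnfsf8) and 0.56 (Tnfrsf9).

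Among the receptors of the TNF family, Tnfrsf4 encodes OX40, which sustains survival of activated T cells after its ligand OX40L is bound. It lies on chr4:156013843-156016612 (mm10, plus strand). Tnfrsf4 stood at 156 CPM in Old + Fumarate (149 to 162), 146 CPM in Old (140 to 151) and 350 CPM in Young (344 to 356). The 2 libraries of old mice were close to each other and both far below Young. Its log2 ratio was -1.26 for Old over Young (interval -1.33 to -1.21), a level 2.4-fold lower on that scale, and -1.16 for Old + Fumarate over Young (-1.24 to -1.10). For Old + Fumarate over Old the ratio was 0.10 (0.01 to 0.18), which was -0.21 when scaled to the identity list. Scaled to that list without Thy1, the call for Old over Young ended, at -0.94, and that for Old + Fumarate over Young stayed past the limit, at -1.07. Of the genes with a mean of at least 10 CPM, 77 had a lower ratio of Old over Young than Tnfrsf4 and 102 a lower ratio of Old + Fumarate over Young.

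Tnfrsf18 encodes GITR, a receptor that costimulates activated T cells and is abundant on regulatory T cells. Its gene, chr4:156026164-156028895 (mm10, plus strand), follows Tnfrsf4 on the same strand with 9551 bases between them. Tnfrsf18 stood at 281 CPM in Old + Fumarate (273 to 290), 211 CPM in Old (204 to 218) and 431 CPM in Young (424 to 437). The Old + Fumarate library lay between the other 2, and the 3 counting intervals did not overlap. The log2 ratio was -1.03 for Old over Young (-1.08 to -0.98), -0.61 for Old + Fumarate over Young (-0.66 to -0.56) and 0.41 for Old + Fumarate over Old (0.35 to 0.48). The call for Old over Young ended when libraries were scaled to the identity list (-0.83) or to Cd4 (-0.62). The value for Old + Fumarate over Old was 0.11 when scaled to the identity list, and 0.19 when Thy1 was left out of it. Gm16008 overlaps Tnfrsf18 on the opposite strand and stood at 11.5, 9.73 and 20.8 CPM in Old + Fumarate, Old and Young. Whether reads were counted by strand is not known, so those of genes that overlap cannot be told apart.

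Tnfrsf9 encodes CD137, an inducible receptor known for costimulating CD8 T cells, and lies on chr4:150914562-150946102 (mm10, plus strand). It stood at 1001 CPM in Old + Fumarate (984 to 1018), 680 CPM in Old (668 to 692) and 716 CPM in Young (708 to 724). The Old + Fumarate library was the highest, and Old and Young were close. The log2 ratio of Old + Fumarate over Old, 0.56 (0.52 to 0.59), was the largest of the 10 genes in that comparison but under the 2-fold limit, and it was 0.60 with TMM scaling, just past 1.5-fold, and 0.25 when scaled to the identity list. Over Young it was 0.48 for Old + Fumarate (0.45 to 0.51) and -0.07 for Old (-0.11 to -0.04), the Old value being 0.12 after scaling to the identity list. In the comparison of Old + Fumarate with Old, 159 of 9659 genes had a higher ratio than Tnfrsf9. Camta1, which overlaps Tnfrsf9 on the opposite strand, stood at 5.56, 6.83 and 6.9 CPM in Old + Fumarate, Old and Young.

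The balance among these 3 inducible receptors differed between libraries. Tnfrsf9 to Tnfrsf4 had a CPM ratio of 6.43 in Old + Fumarate (6.14 to 6.73), 4.67 in Old (4.48 to 4.88) and 2.05 in Young (2 to 2.09). The ratio of Tnfrsf9 to Tnfrsf18 was 3.56 in Old + Fumarate (3.43 to 3.69), 3.22 in Old (3.11 to 3.35) and 1.66 in Young (1.63 to 1.69). Set against each other within a library, which takes out the scaling between libraries, the receptors thus showed a larger part for Tnfrsf9 in both libraries of old mice than in Young. Such ratios are compared between libraries only, since the genes differ in length.

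Cd27, whose product supports naive and memory T cells after binding CD70, lies on chr6:125232622-125237010 (mm10, minus strand). It stood at 51.8 CPM in Old + Fumarate (48.1 to 55.8), 59.4 CPM in Old (55.8 to 63.2) and 63.9 CPM in Young (61.5 to 66.4). The order ran from lowest in Old + Fumarate to highest in Young over a narrow range, and the intervals of Old and Young overlapped. The log2 ratios were -0.19 for Old + Fumarate over Old (-0.34 to -0.06) and -0.10 for Old over Young (-0.21 to -0.00). The ratio of Old over Young was 0.09 after scaling to the identity list. Scaled to Cd4, Old over Young was 0.29 and Old + Fumarate over Young 0.10, where the second was -0.30 on CPM. Vamp1 overlaps Cd27 on the opposite strand and stood at 10.5, 14.2 and 11.3 CPM in Old + Fumarate, Old and Young.

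Among the ligands, Cd40lg encodes CD40 ligand, the signal by which helper T cells activate B cells and dendritic cells, and lies on chrX:57212143-57224042 (mm10, plus strand). Cd40lg stood at 13.4 CPM in Old + Fumarate (11.6 to 15.5), 10.7 CPM in Old (9.17 to 12.3) and 50.5 CPM in Young (48.3 to 52.7). Both libraries of old mice were far below Young, and their own intervals overlapped. The log2 ratio was -2.14 for Old over Young (-2.47 to -2.03), 4.42-fold lower, and -1.84 for Old + Fumarate over Young (-2.13 to -1.69), 3.57-fold lower on the CPM + 1 scale. Between Old + Fumarate and Old it was 0.31 (0.03 to 0.64), and 0.025 when scaled to the identity list. Of the genes with a mean of at least 10 CPM, 13 had a lower ratio of Old over Young than Cd40lg, and 24 a lower ratio of Old + Fumarate over Young.

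CD40 ligand is made mainly by CD4 T cells, so its level was also set against Cd4, the coreceptor gene of that lineage. Cd4 stood at 181 CPM in Old + Fumarate, 180 CPM in Old and 238 CPM in Young. The CPM ratio of Cd40lg to Cd4 was 0.0744 in Old + Fumarate (0.0637 to 0.0863), 0.0592 in Old (0.0507 to 0.0687) and 0.212 in Young (0.202 to 0.222). Scaled to Cd4, the log2 ratio of Cd40lg remained past the 2-fold limit, at -1.76 for Old over Young and -1.45 for Old + Fumarate over Young. That of Tnfrsf4 was then under the limit, at -0.86 for Old over Young and -0.77 for Old + Fumarate over Young. Against Cd28, another T cell gene, Cd40lg had a CPM ratio of 0.107 in Old + Fumarate (0.0917 to 0.125), 0.0701 in Old (0.06 to 0.0814) and 0.283 in Young (0.269 to 0.297).

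Tnfsf11 encodes RANKL, a ligand of activated T cells known for driving osteoclast formation and dendritic cell survival, and lies on chr14:78277445-78308043 (mm10, minus strand). It stood at 72.6 CPM in Old + Fumarate (68.2 to 77.2), 57.2 CPM in Old (53.7 to 60.9) and 115 CPM in Young (111 to 118). Young was the highest and Old the lowest, with no overlap of the intervals. The log2 ratio was -0.99 for Old over Young (-1.10 to -0.90), -0.65 for Old + Fumarate over Young (-0.76 to -0.56) and 0.34 for Old + Fumarate over Old (0.22 to 0.47). The value for Old over Young sat at the limit itself (1.99-fold lower) and was -1.05 with TMM scaling and -0.80 with scaling to the identity list. That for Old + Fumarate over Old was 0.04 when scaled to the identity list, so its size, though not its sign, depended on the scale.

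Tnfsf8 encodes CD30 ligand, which binds the receptor CD30 of activated lymphocytes, and lies on chr4:63831308-63861347 (mm10, minus strand). It stood at 101 CPM in Old + Fumarate (95.8 to 106), 148 CPM in Old (143 to 154) and 144 CPM in Young (141 to 148). Here Old + Fumarate was the low library, and the intervals of Old and Young overlapped. The log2 ratio was -0.55 for Old + Fumarate over Old (-0.65 to -0.46), 0.04 for Old over Young (-0.03 to 0.11) and -0.51 for Old + Fumarate over Young (-0.60 to -0.43). Scaled to the identity list the value for Old + Fumarate over Old was -0.85, past 1.5-fold, and with TMM scaling that for Old over Young was -0.02.

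Tnf encodes tumour necrosis factor, the inflammatory cytokine of the family, and lies on chr17:35199381-35202007 (mm10, minus strand). It stood at 29.1 CPM in Old + Fumarate (26.3 to 32.1), 27.3 CPM in Old (24.9 to 29.9) and 29.3 CPM in Young (27.7 to 31.1). The intervals of the 3 libraries overlapped. Its log2 ratio was 0.09 for Old + Fumarate over Old (-0.11 to 0.28), -0.10 for Old over Young (-0.26 to 0.05) and -0.01 for Old + Fumarate over Young (-0.18 to 0.15). The signs of these small ratios depended on the scale: scaled to the identity list, Old + Fumarate over Old was -0.21 and Old over Young 0.09, and with reads thinned to equal depth Old + Fumarate over Young was 0.09.

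The sequences just upstream of Tnfrsf4, Tnfsf11 and Tnf are shown because the first had a clearly lower level in the libraries of old mice, the second lay at the limit for Old, and the third stayed near its Young level. In these windows of 250 bases before the start, no base lies in an annotated exon of the gene. They end at the RefSeq start, which for Tnfrsf4 lies upstream of the gene start given above. They are RefSeq sequences of GRCm38.p6, given 5′ to 3′ on the strand of the gene, at chr4:156013445-156013694 (plus), chr14:78308044-78308293 (minus) and chr17:35202008-35202257 (minus). Capitals mark matches on either strand to GGAAA, the core recognised by NFAT, to TGANTCA for AP-1, to GGANTTTCC for NF-kappa B, and to the TATA box TATAAA.
Tnfrsf4: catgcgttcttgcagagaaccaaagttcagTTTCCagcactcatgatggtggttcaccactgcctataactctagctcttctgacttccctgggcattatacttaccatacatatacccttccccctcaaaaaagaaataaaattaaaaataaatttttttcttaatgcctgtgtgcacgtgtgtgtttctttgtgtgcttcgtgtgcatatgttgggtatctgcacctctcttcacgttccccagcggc
Tnfsf11: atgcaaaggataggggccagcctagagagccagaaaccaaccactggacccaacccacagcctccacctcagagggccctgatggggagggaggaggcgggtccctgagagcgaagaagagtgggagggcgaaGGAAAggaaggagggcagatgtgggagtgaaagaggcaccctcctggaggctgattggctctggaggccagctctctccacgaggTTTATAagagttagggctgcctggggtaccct
Tnf: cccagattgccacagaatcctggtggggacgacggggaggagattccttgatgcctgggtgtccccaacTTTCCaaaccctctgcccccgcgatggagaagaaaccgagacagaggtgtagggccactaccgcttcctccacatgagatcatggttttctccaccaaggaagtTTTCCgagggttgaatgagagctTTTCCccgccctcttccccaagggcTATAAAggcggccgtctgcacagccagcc
Tnfrsf4 held 1 match to GGAAA, Tnfsf11 held 1 match to GGAAA and 1 to TATAAA, and Tnf held 3 matches to GGAAA and 1 to TATAAA. In none of these 3 windows was there a match to TGANTCA or GGANTTTCC. Of 32851 promoter windows of the same length, 55.6% held GGAAA, 12.4% TATAAA, 6.75% TGANTCA and 1.07% GGANTTTCC. The letters GGANTTTCC end in the reverse complement of GGAAA, so each match to them also counts as a match to GGAAA. Promoter sequences were matched for 7 of the 10 genes, and Cd40lg, Cd28 and Icos had none.

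In the CD28 family, Cd28 encodes the main costimulatory receptor of naive T cells and lies on chr1:60716800-60773359 (mm10, plus strand). It stood at 125 CPM in Old + Fumarate (119 to 131), 152 CPM in Old (146 to 158) and 179 CPM in Young (175 to 183). The 3 libraries were separate by counting error, with Old + Fumarate lowest and Young highest. The log2 ratio was -0.28 for Old + Fumarate over Old (-0.37 to -0.19), -0.23 for Old over Young (-0.30 to -0.17) and -0.51 for Old + Fumarate over Young (-0.59 to -0.44). When scaled to Cd4, the value for Old over Young was 0.17.

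Icos encodes the inducible costimulator of helper T cells, on chr1:60977927-61000320 (mm10, plus strand), with 204567 bases between it and Cd28. It stood at 210 CPM in Old + Fumarate (202 to 218), 204 CPM in Old (198 to 211) and 252 CPM in Young (247 to 256). Both libraries of old mice were somewhat below Young, and their own intervals overlapped. The log2 ratio was 0.04 for Old + Fumarate over Old (-0.03 to 0.11), -0.30 for Old over Young (-0.36 to -0.24) and -0.26 for Old + Fumarate over Young (-0.32 to -0.20). Scaled to Cd4, Old over Young was 0.10 and Old + Fumarate over Young 0.14, and scaled to the identity list Old + Fumarate over Old was -0.27. Cd28 to Icos had a CPM ratio of 0.597 in Old + Fumarate (0.562 to 0.633), 0.744 in Old (0.707 to 0.783) and 0.71 in Young (0.689 to 0.732).

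**Figure D3:**
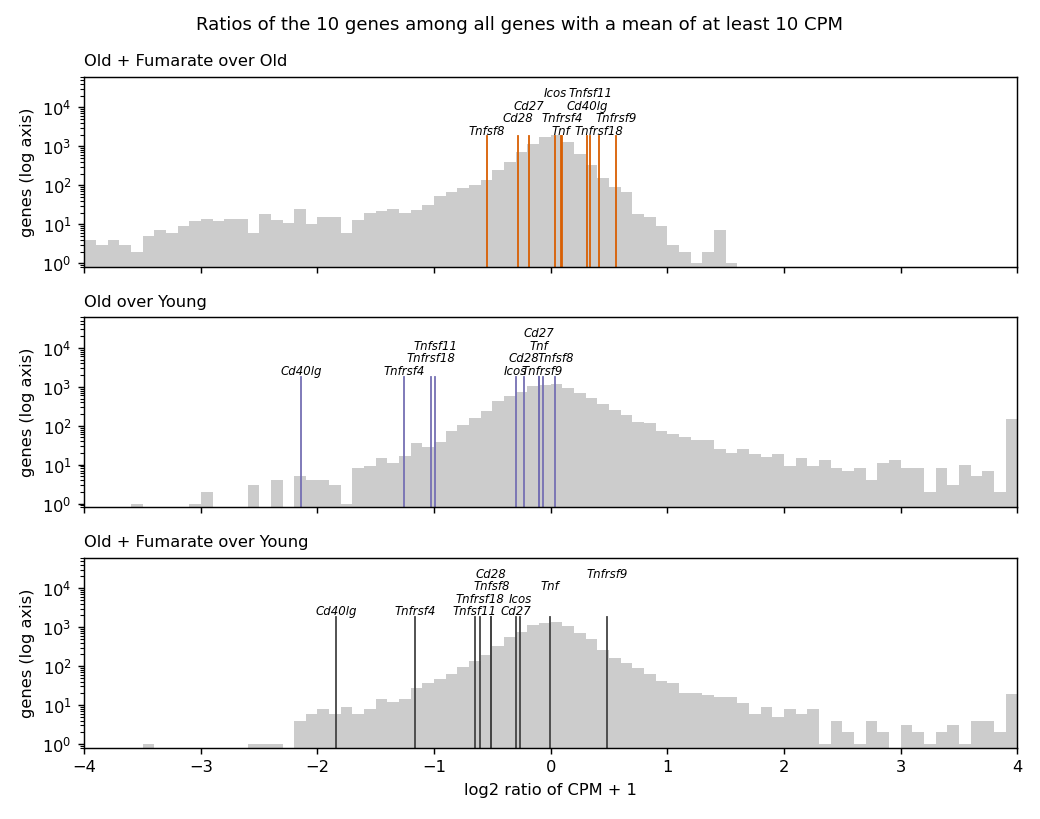
Log2 ratios of CPM + 1 of the 10 genes (lines) among those of all genes with a mean of at least 10 CPM (grey, log count axis, values beyond the axis gathered in the end bins) for Old + Fumarate over Old, Old over Young, and Old + Fumarate over Young. Cd40lg at -2.14 and Tnfrsf4 at -1.26 lie toward the low end for Old over Young, and in Old + Fumarate over Old the 10 lines stay between -0.55 and 0.56.

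Per kilobase of exon, the scale on which genes of different length can be set beside each other, Tnfrsf9, Tnfrsf18 and Tnfrsf4 were the 3 highest of the set in each library, and Icos came next. Length was that of all annotated exons of a gene joined, which need not be the transcript made. The intervals do not cover this choice, so close orders may depend on it. In Old + Fumarate, Tnfrsf9 led with 368 CPM per kb, followed by Tnfrsf18 with 185, Tnfrsf4 with 114 and Icos with 61.2. In Old, Tnfrsf9 had 250 CPM per kb, Tnfrsf18 138, Tnfrsf4 107 and Icos 59.6. In Young, Tnfrsf18 led with 283 CPM per kb, and Tnfrsf9 with 263 and Tnfrsf4 with 256 followed closely, the intervals of Tnfrsf9 (260 to 266) and Tnfrsf4 (252 to 261) overlapping, ahead of Icos with 73.3.

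Lower in the order, Cd40lg changed place most. It was the lowest of the 10 genes in Old + Fumarate, at 10.7 CPM per kb, and in Old, at 8.53, while in Young it was in place 6 at 40.4. In Old + Fumarate the genes between Icos and Cd40lg ran Tnfsf11 (32.5 CPM per kb), Tnfsf8 (26.5), Cd27 (22.3), Cd28 (20.5) and Tnf (17.7), and the interval of Cd28 overlapped those of Cd27 and Tnf. In Old they ran Tnfsf8 (39), Tnfsf11 (25.6), Cd27 (25.5), Cd28 (24.8) and Tnf (16.7), and Tnfsf11, Cd27 and Cd28 could not be ordered by their intervals. In Young, Tnfsf11 (51.3) stood above Cd40lg, and Tnfsf8 (37.9), Cd28 (29.2), Cd27 (27.5) and Tnf (17.9) below it, the intervals of Cd40lg and Tnfsf8 overlapping.

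The partners of these molecules were described next. OX40 ligand (Tnfsf4), which activated antigen-presenting cells and some T cells make, stood at 88.3 CPM in Old + Fumarate, 94.2 CPM in Old and 27.6 CPM in Young. Its log2 ratio was 1.73 for Old over Young and 1.64 for Old + Fumarate over Young, opposite in direction to that of its receptor Tnfrsf4. The CPM ratio of Tnfrsf4 to Tnfsf4 was 1.76 in Old + Fumarate (1.64 to 1.89), 1.54 in Old (1.45 to 1.64) and 12.7 in Young (11.9 to 13.5).

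CD30 (Tnfrsf8), the receptor for the product of Tnfsf8, stood at 264 CPM in Old + Fumarate, 145 CPM in Old and 16.8 CPM in Young. Of the 21 other receptor genes of the family in the table it had the largest ratio in Old + Fumarate over Young, 3.90, and it had 3.04 in Old over Young. The CPM ratio of Tnfsf8 to Tnfrsf8 was 0.383 in Old + Fumarate (0.36 to 0.408), 1.03 in Old (0.97 to 1.08) and 8.61 in Young (7.95 to 9.33). Between Old and Young the ligand itself had a log2 ratio of 0.04, while Old + Fumarate was the low library for the ligand, as given above.

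CD40, the receptor of CD40 ligand on B cells and other antigen-presenting cells, was low, at 2.24 CPM in Old + Fumarate, 5.04 CPM in Old and 1.44 CPM in Young. The CPM ratio of Cd40lg to Cd40 was 6 in Old + Fumarate (4.09 to 9.08), 2.11 in Old (1.63 to 2.76) and 35.1 in Young (27.1 to 46.2). RANK (Tnfrsf11a), the receptor of RANKL, was at 0.144 CPM in Old + Fumarate, 0.116 CPM in Old and 0.171 CPM in Young, under the 3 reads that a value of 0 allows in both libraries of old mice. Those reads were too few for a ratio to Tnfsf11.

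For CD137, the ligand gene Tnfsf9 stood at 11.7 CPM in Old + Fumarate, 9.15 CPM in Old and 9.19 CPM in Young. The CPM ratio of Tnfrsf9 to Tnfsf9 was 85.3, 74.3 and 78 in Old + Fumarate, Old and Young, with overlapping intervals. The CD27 ligand gene Cd70 stood at 2.31 CPM in Old + Fumarate, 2.55 CPM in Old and 4.51 CPM in Young. For TNF, the gene of its broadly expressed receptor Tnfrsf1a stood at 20 CPM in Old + Fumarate, 29.8 CPM in Old and 17.3 CPM in Young, and that of the lymphoid receptor Tnfrsf1b at 90.8, 85.4 and 78.1 CPM.

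Ctla4, whose product competes with CD28 for the B7 ligands and restrains T cells, stood at 103 CPM in Old + Fumarate, 172 CPM in Old and 162 CPM in Young. Cd28 to Ctla4 had a CPM ratio of 1.22 in Old + Fumarate (1.14 to 1.31), 0.884 in Old (0.838 to 0.932) and 1.1 in Young (1.07 to 1.14). Old was thus the library with the least Cd28 per Ctla4. The B7 genes Cd80 and Cd86 stood at 45.6 and 2.96 CPM in Old + Fumarate, 36 and 4.81 CPM in Old, and 66.3 and 3.85 CPM in Young. The ICOS ligand gene Icosl was at 2.09 CPM in Old + Fumarate, 2.72 CPM in Old and 1.61 CPM in Young.

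**Figure D4:**
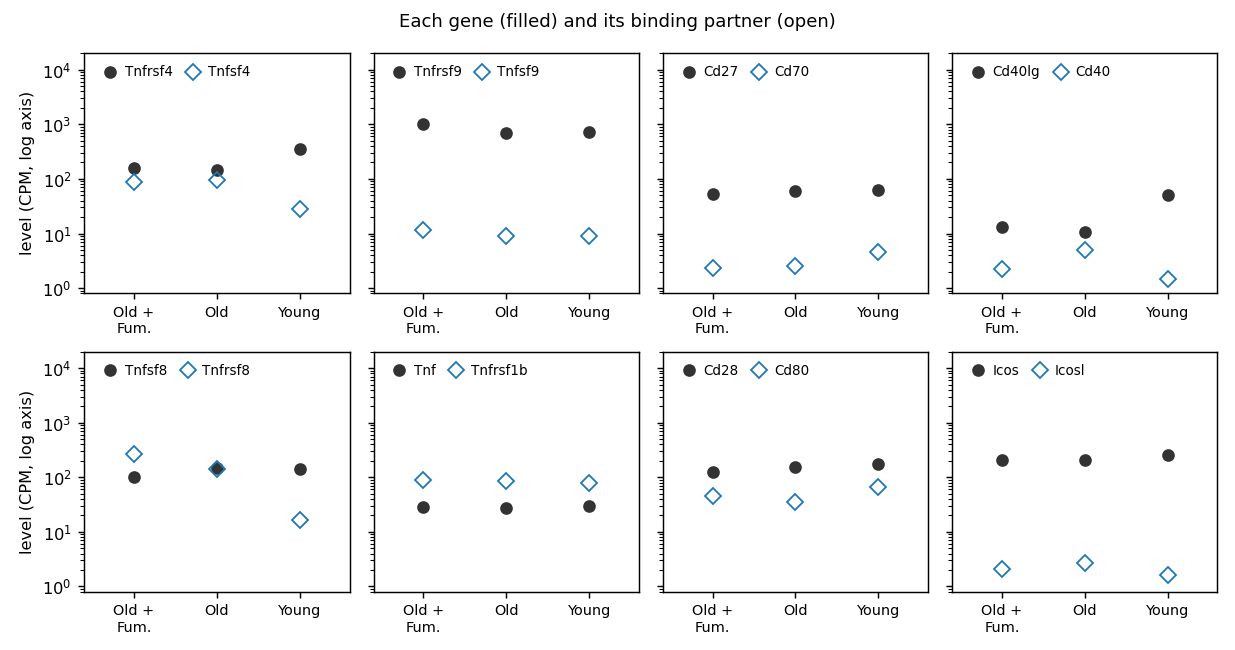
Levels in CPM (log axis, 1 panel per pair) of 8 of the 10 genes (filled circles) and of a ligand or receptor gene of each (open diamonds) in the Old + Fumarate (Old + Fum.), Old and Young libraries. The distance between Tnfrsf4 and Tnfsf4 is smaller in both libraries of old mice than in Young, a CPM ratio of 1.76 in Old + Fumarate and 1.54 in Old against 12.7, and Tnfrsf8 lies above Tnfsf8 in Old + Fumarate but below it in Young.

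Beyond the direct partners, 12 of 14 other ligand genes of the family were in the table. As background for this list and those below, 8.96% of all genes were at least 2-fold higher and 1.71% lower in Old over Young. These shares were 3.99% and 1.95% in Old + Fumarate over Young, and 0.258% and 5.87% in Old + Fumarate over Old. In Old over Young 4 of the 12 were at least 2-fold higher and 1 was lower, with a median log2 ratio of 0.41 against 0.04 for all genes. Beside Tnfsf4, the higher genes were Tnfsf10, the death ligand TRAIL, at 36.6 CPM in Old and 9.44 CPM in Young, and Tnfsf14, the ligand LIGHT, at 64.4 CPM in Old and 25.4 CPM in Young. The fourth, Tnfsf13, was at 1.06 CPM in Old and under 1 read in Young, so no fold is given, and it is named here after its values were seen. Ltb, encoding lymphotoxin beta, was lower, at 20.2 CPM in Old and 103 CPM in Young, a log2 ratio of -2.30. In Old + Fumarate over Young 2 genes were higher, Tnfsf4 and Tnfsf10 (26.3 CPM in Old + Fumarate), and Ltb was lower at 40.3 CPM, a call that ended when scaled to Cd4. In Old + Fumarate over Old 0 were higher and 1 was lower, Tnfsf13, which was under 1 read in Old + Fumarate. Ltb lay just under the limit, at 40.3 CPM in Old + Fumarate and 20.2 CPM in Old (log2 ratio 0.96), and with TMM or median-of-ratios scaling 1 ligand gene was higher.

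Of the other receptor genes of the family, 21 of 24 were in the table. In Old over Young 7 of the 21 were at least 2-fold higher and 1 was lower, with a median of 0.43. The lower gene was Tnfrsf13c, the BAFF receptor of B cells, at 2.14 CPM in Old and 6.95 CPM in Young. The largest ratio was that of Ltbr, the lymphotoxin beta receptor that stromal and myeloid cells carry, at 13.7 CPM in Old and 0.439 CPM in Young. After it and Tnfrsf8 came Eda2r, at 12.9 CPM in Old and 1.73 CPM in Young, and Tnfrsf26, at 16.9 CPM in Old and 4.68 CPM in Young. For Old + Fumarate over Young 4 were higher and 1 was lower, the lower gene being Tnfrsf13c again, at 1.01 CPM in Old + Fumarate. Against Old, in the Old + Fumarate library 0 were higher and 2 were lower, Ltbr at 1.95 CPM in Old + Fumarate and Tnfrsf21 at 3.25 CPM in Old + Fumarate against 11.4 CPM in Old.

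In the CD28 and B7 family 10 of 11 genes were in the table, and the only one past 2-fold in any of the 3 comparisons was Cd274, encoding PD-L1, at 123 CPM in Old and 59.9 CPM in Young (log2 ratio 1.03). That call ended with TMM and with median-of-ratios scaling. In Old + Fumarate over Old and in Old + Fumarate over Young the largest gene of the list by mean level, Ctla4, had log2 ratios of -0.74 and -0.66. Scaled to the identity list, 2 of the 10 were at least 2-fold lower in Old + Fumarate over Old.

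Downstream of the TNF receptors, the 14 TRAF and death domain adaptor genes held 0 genes past 2-fold in Old over Young and 0 in Old + Fumarate over Old. The Old + Fumarate library had 1 of the 14 higher than Young, Traf1, an adaptor gene induced by NF-kappa B, at 667 CPM in Old + Fumarate and 244 CPM in Young (log2 ratio 1.45). Traf1 stood at 456 CPM in Old, giving 0.90 for Old over Young and 0.55 for Old + Fumarate over Old, both under the limit. Scaled to Cd4, 2 of the 14 were higher in Old over Young and 2 in Old + Fumarate over Young. As for Tnfrsf8, Old + Fumarate was the highest library for Traf1 and Young the lowest.

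Of the 20 genes of NF-kappa B factors, kinases and inhibitors, 3 were at least 2-fold higher and 0 lower in Old over Young, and likewise in Old + Fumarate over Young. In both comparisons these were Tnfaip3, which encodes the feedback inhibitor A20, Bcl3, an atypical inhibitor protein, and Tnip2, a partner of A20. Tnfaip3 stood at 281 CPM in Old + Fumarate, 303 CPM in Old and 133 CPM in Young. Bcl3 stood at 70.5 CPM in Old + Fumarate, 51.8 CPM in Old and 24.2 CPM in Young. Tnip2 stood at 43 CPM in Old + Fumarate, 42.7 CPM in Old and 20.5 CPM in Young, and lay close to the limit at 1.03 and 1.02. The count for Old over Young was 2 with TMM scaling and 4 when scaled to the identity list or to Cd4. That for Old + Fumarate over Young was 1 when scaled to the identity list and 4 when scaled to Cd4. The list's median log2 ratio was 0.19 for Old over Young and 0.20 for Old + Fumarate over Young, against 0.04 and 0.00 for all genes. Among all genes 8.96% and 3.99% were higher in these comparisons. For Old + Fumarate over Old 0 of the 20 passed the limit, and Nfkb1, the largest by mean level, had a ratio of 0.18.

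Among 16 genes of proximal signalling by CD28 and ICOS, 0 were higher and 1 was lower in Old over Young and in Old + Fumarate over Young. In both it was Carmil2, encoding a scaffold protein of CD28 signalling, at 35.8 CPM in Old + Fumarate, 31 CPM in Old and 78.6 CPM in Young. After scaling to Cd4 the count was 0 in both, and after scaling to the identity list without Thy1 it was 0 in Old over Young. The remaining 15 genes lay within 2-fold in each of these comparisons, as did 16 of 16 in Old + Fumarate over Old. Lck, the kinase gene largest by mean level, stood at 578 CPM in Old + Fumarate and 418 CPM in Old.

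For each of the 10 genes, the genes with the most similar pair of ratios (Old over Young, and Old + Fumarate over Old) were found among 8683 genes with a mean of at least 10 CPM, over 3 libraries. Predicted or unnamed genes, pseudogenes, and T cell receptor and immunoglobulin segments were left out of this search. Likeness was the larger of the 2 absolute log2 differences. For Cd40lg the nearest was Cth, an enzyme of cysteine synthesis, at 18.8 CPM in Old + Fumarate, 15.6 CPM in Old and 74.6 CPM in Young, a difference of 0.054. Next came Gpt2, an alanine aminotransferase, at 11.5, 8.63 and 42.7 CPM in Old + Fumarate, Old and Young, a difference of 0.075. Only these 2 genes lay within 0.1 of Cd40lg. Within 0.1 of Tnfrsf4 were 7 genes, of Tnfsf11 13, of Tnfrsf9 and Tnfrsf18 14 each, and of Tnfsf8 27. The patterns of Cd28, Cd27, Icos and Tnf were common ones, with 94, 301, 506 and 1016 genes within 0.1.

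The T cell label was checked against markers, and 18 of 18 T cell identity genes were in the table, summing to 5563 CPM in Old + Fumarate, 4501 CPM in Old and 5154 CPM in Young, with 0 of them past 2-fold in any of the 3 comparisons. Much of the sum was Thy1, at 1453, 987.7 and 751.7 CPM, and without it the list summed to 4110 CPM in Old + Fumarate, 3513 CPM in Old and 4402 CPM in Young. The list's median log2 ratio was -0.45 for Old over Young, with 15 of 18 genes below 0, and -0.16 for Old + Fumarate over Young, with 13 of 18 below 0. For Old + Fumarate over Old it was 0.23, with 16 of 18 above 0. Markers of several other cell types differed between the libraries. Erythroid and platelet markers summed to 166.6 CPM in Old + Fumarate, 1301 CPM in Old and 11.2 CPM in Young, and 10 of 11 were at least 2-fold higher in Old over Young. Basophil and mast cell markers summed to 98.2, 512.6 and 6.25 CPM in the same order, with 9 of the 9 listed genes higher in Old over Young. NK cell markers summed to 57.8, 77.3 and 6.00 CPM (Klra8 listed at 0 in Old + Fumarate), macrophage and monocyte markers to 7.002, 51.6 and 16.4 CPM (Adgre1 listed at 0 in Old + Fumarate and Fcgr1 in Young), and B cell markers to 20.3, 18.6 and 7.98 CPM. Sums lay closer together for plasma cell markers (131.6, 164.4 and 118.3 CPM) and dendritic cell markers (68.5, 93.25 and 85.34 CPM). Of these, 2 of the 6 listed plasma cell genes and 2 of the 5 listed dendritic cell genes were at least 2-fold higher in Old over Young. The part of all these cells in the levels of the 10 genes was not tested.

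Within the T cells, the CD8 lineage genes summed to 1053 CPM in Old + Fumarate, 839.6 CPM in Old and 805.6 CPM in Young, and the 3 CD4 lineage genes to 217.3, 221.7 and 308.5 CPM. Nkg7, which NK cells express too, was at 200 CPM in Old + Fumarate, 193.6 CPM in Old and 99.7 CPM in Young, and without it the CD8 genes summed to 853, 646 and 705.9 CPM. Cd8a was at 218 CPM in Old + Fumarate, 187 CPM in Old and 229 CPM in Young. Regulatory T cell genes summed to 2440 CPM in Old + Fumarate, 1961 CPM in Old and 1398 CPM in Young, but the sum was mostly Il2ra, which activated T cells express too. Foxp3, the defining gene, was at 1.54 CPM in Old + Fumarate, 4.11 CPM in Old and 1.04 CPM in Young. The share of T cell subsets in the differences of Cd40lg, Tnfrsf4 and Tnfrsf18 was not tested beyond the ratios to Cd4 given above.

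**Figure D5:**
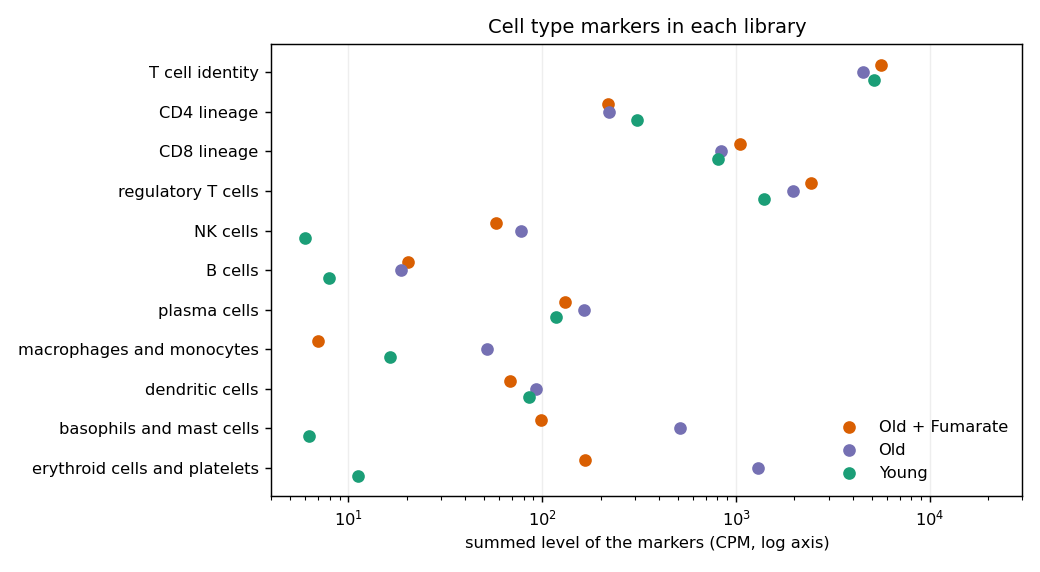
Summed CPM of marker genes of T cells and of other cell types in the Old + Fumarate, Old and Young libraries, on a log axis. T cell identity genes sum to 5563, 4501 and 5154 CPM, while erythroid and platelet markers sum to 166.6, 1301 and 11.2 CPM.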

How the data were processed

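The 3 libraries hold polyadenylated RNA of activated spleen T cells, with 500 ng of total RNA per library and a SMARTER kit, per the labels' protocols. STAR, Partek and mm10 are named in the submitters' processing notes, without versions or roles, while for the annotation release and strandedness nothing is stated. Although its name speaks of raw counts, the table deposited by the authors holds CPM, since each column sums to 1000000. Low values repeat at the worth of 1 read (0.0722, 0.0579 and 0.0244 CPM in Old + Fumarate, Old and Young), from which depth was estimated. With a tolerance of 0.02 reads, 67.6% to 70.7% of values sat at whole reads, too few to recover whole reads, and count models were not used. Each listed gene has at least 10 estimated reads over the libraries. With a gene listed at 0, up to 3 reads remain possible: 0.217 CPM for Old + Fumarate, 0.174 CPM for Old and 0.0732 CPM for Young.

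Groups follow the titles. With 1 library per group no test was run. Computed from the table were log2 ratios of CPM + 1, a 2-fold limit, and exact 95% Clopper-Pearson (ratios) and Poisson (levels) intervals on estimated reads, which were tested on simulated data. Exon lengths and positions come from GENCODE M21, with table ends moved back by 1 base. The genes and the lists were chosen with earlier results of these data known. Genes named are the 10 genes with their partners, per list up to 4 past 2-fold with the largest ratio or, with none past, the largest by mean CPM, and the genes nearest in pattern. Other settings tried were scaling by TMM (trimming 30% of ratios and 5% of levels), by median of ratios and to the T cell identity genes, constants of 0.5 and 5 CPM, limits of 1.5-fold and 3-fold, an expression minimum and thinning to the shallower library. Scaling to Cd4, and to the identity genes without Thy1, was added after seeing the data. Software was Python 3.11.15 with scipy 1.17.1, numpy 2.4.6, matplotlib 3.10.9 and pandas 2.3.3.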

Additional observations from a re-analysis of the deposited data

How the results depend on the processing

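Under the alternatives, 240 ratios of the 10 genes were recomputed and 0 of those past 2-fold changed sign. This lends little support, because the scalings moved ratios by far less than 2-fold and added constants keep the sign. Of the ratios under 2-fold, 26 changed sign. The count of lower genes in Old over Young, 3 as reported, was 1 (Cd40lg) when libraries were scaled to Cd4, 1 (Cd40lg) when scaled to the T cell identity genes without Thy1 and 1 with a 3-fold limit. It was 2 when scaled to all T cell identity genes, and 4 with TMM scaling, median-of-ratios scaling or a 1.5-fold limit. The count in Old + Fumarate over Young, 2 as reported, was 1 when scaled to Cd4, 1 with a 3-fold limit and 4 with a 1.5-fold limit. Scaling to Cd4 moved the median ratio of all genes by 0.32 for Old over Young and by 0.31 for Old + Fumarate over Young, and for other settings the cause of a change was not tested. No paired analysis was possible because each group had 1 library, and leaving out a replicate was not possible for the same reason. Differences between the libraries can come from single mice, cultures or library preparations, which these data cannot tell apart from age or treatment. Thinning to equal depth changed the sign of Tnf in Old + Fumarate over Young, to 0.09 on log2. The few reads of Tnfrsf11a left it without a usable value.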

Other observations

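SLAM receptors and other accessory receptors of T cells were described from a list of 15 genes, of which 14 were in the table. In Old over Young 1 was at least 2-fold higher and 1 was lower, with a median log2 ratio of -0.24 that was 0.16 when scaled to Cd4. The higher gene was Cd244a, a receptor of NK cells and CD8 T cells, at 7.01 CPM in Old and 0.781 CPM in Young. The lower gene was Ly9, a SLAM receptor of lymphocytes, at 46.9 CPM in Old and 121 CPM in Young, and this call ended when scaled to Cd4. In Old + Fumarate over Young Cd244a was higher at 3.9 CPM, and Slamf6 was lower, at 9.31 CPM in Old + Fumarate and 24.5 CPM in Young, a call that also ended when scaled to Cd4. NK cell markers moved in the same libraries as Cd244a, and their part was not tested. In Old + Fumarate over Old 0 of the 14 passed 2-fold, and 2 were lower when scaled to the T cell identity genes.

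Of 13 genes for NFAT, AP-1 and related factors that act on cytokine and ligand genes, 2 were at least 2-fold higher and 0 lower in Old over Young, and 3 were higher in Old + Fumarate over Young. Among all genes 8.96% and 3.99% were higher in these comparisons. The list's median log2 ratio was -0.18 in the first and 0.12 in the second, against 0.04 and 0.00 for all genes. Scaled to Cd4, the median for Old over Young was 0.22. Batf, an AP-1 factor of effector T cells, stood at 79.3 CPM in Old + Fumarate, 92.7 CPM in Old and 31.8 CPM in Young. Fosl1 stood at 7.49 CPM in Old + Fumarate, 9.1 CPM in Old and 2.84 CPM in Young. Batf3 stood at 128 CPM in Old + Fumarate and 41.6 CPM in Young, past the limit in that comparison. In Old + Fumarate over Old 0 of the 13 passed it.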
